A study of Mus musculus with 36 samples.

Results

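The apolipoprotein genes *Apoa1*, *Apoa2*, *Apoa4*, *Apoa5*, *Apob*, *Apoc1*, *Apoc2*, *Apoc3*, *Apoe* and *Apom* were followed in primary mouse cells treated with butyrate or β-hydroxybutyrate (βOHB). The 10 genes were taken by symbol from the 54347 genes of the count table, and all 10 were found. The study exposed 4 kinds of primary mouse cells over 6 h to PBS as control, to βOHB or to butyrate (each compound at 5 mM), with 3 libraries in each of the 12 groups. Adipocytes had been differentiated from stromal vascular cells of inguinal fat pooled from several male mice, macrophages from bone marrow of male mice in L929-conditioned medium, and myotubes from pre-plated hindlimb myoblasts, whereas hepatocytes came straight from livers perfused with collagenase. The strain is C57Bl/6 for every cell type by the labels, and the study's methods name C57BL/6NHsd for the hepatocytes. The ketone body βOHB differs from butyrate, a short-chain fatty acid and inhibitor of histone deacetylases, by a hydroxyl group on its chain. No label ties the 3 libraries of a group to separate cultures or animals, so p-values measure only the spread between libraries within groups, which may be technical. For each gene that spread was estimated over all 36 libraries of the fit, those of other cell types included.

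Apolipoproteins are the protein part of lipoproteins. ApoB forms the scaffold of VLDL and of chylomicrons, apoA-I that of HDL, and the smaller exchangeable apolipoproteins move between particles, where they activate or inhibit lipases and serve as ligands of lipoprotein receptors. The liver is the main source of most of them, and macrophages and adipocytes also make apoE, which takes part in the release of cholesterol from cells.

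Of the members, 7 lie in 2 clusters of the mouse genome (GRCm38). *Apoa1* (chr9:46228580-46230466), *Apoc3* (chr9:46232933-46235636), *Apoa4* (chr9:46240696-46243459) and *Apoa5* (chr9:46268633-46271919) are neighbours, and so are *Apoe* (chr7:19696109-19699188), *Apoc1* (chr7:19689481-19692660) and *Apoc2* (chr7:19671579-19677941). *Apob* (chr12:7977648-8016835), *Apoa2* (chr1:171225054-171226379) and *Apom* (chr17:35128997-35132050) lie apart from both clusters.

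Each library held 18366289 to 23221473 estimated counts in all. The named cell types carried their own markers: the summed level of 7 adipocyte markers was 9094 to 9957 CPM (read counts scaled to library size) in adipocyte controls, that of 15 macrophage markers was 25671 to 25889 in macrophage controls, that of 8 myotube markers 26039 to 31808 in myotube controls and that of 16 hepatocyte markers 79510.3 to 83782 in hepatocyte controls. Here the total behind CPM is the counts in tested genes, scaled by edgeR's TMM factors. 5 of the 27 libraries of other cells stood apart by hepatocyte transcripts, 4 of myotubes and, at a far lower level, 1 of macrophages. The summed hepatocyte markers reached 76.0, 1221 and 292 CPM in butyrate replicates 1, 2 and 3 of the myotubes and 64.2 in their βOHB replicate 3, against 12.3 to 17.1 in the other 5 myotube libraries, where *F2* made up most of the sum. *Alb*, which encodes albumin, was at 23.5, 432, 95.3 and 18.4 CPM in those 4 libraries and at 0.044 CPM or less in the other 5. Control replicate 3 of the macrophages had 22 counts of *Alb* (0.952 CPM) against 0 or 1 in the other 8 macrophage libraries, and a marker sum of 2.12 CPM against 0.212 to 1.05. The butyrate response of myotubes cannot be given without them, since all 3 of its butyrate libraries are among them.

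In control cells the hepatocytes held the highest level of 9 of the 10 members, and *Apoe* alone was higher in each of the 3 macrophage controls than in the hepatocyte controls. Per length of exon, *Apoa1*, the main protein of HDL, led in hepatocytes at 4516 ± 36.7 CPM per kb (SD, n = 3). *Apoe*, the ligand by which remnant particles are taken up, followed at 1711 ± 82.9, then *Apoa2*, another HDL protein, at 606 ± 44.5. The next were *Apoc3*, which slows the clearance of triglycerides, at 451 ± 75.6 and *Apoc2*, the activator of lipoprotein lipase, at 349.5 ± 18.5 CPM per kb. *Apob* stood at 235 ± 61.1, *Apoa4*, a protein of intestinal and hepatic particles, at 221 ± 55.1, *Apoc1*, an inhibitor of lipid exchange, at 159.5 ± 24.3, and *Apom*, the HDL carrier of sphingosine 1-phosphate, at 154 ± 9.05. *Apoa5*, which promotes lipolysis of triglyceride-rich particles, was the lowest at 54.0 ± 9.96 CPM per kb. The ranges of *Apoc3* and *Apoc2*, of *Apob* and *Apoa4*, of *Apoa4* and *Apoc1*, and of *Apoc1* and *Apom* overlapped, so neighbours in that part of the order did not differ beyond the spread of their libraries.

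**Figure D1:**
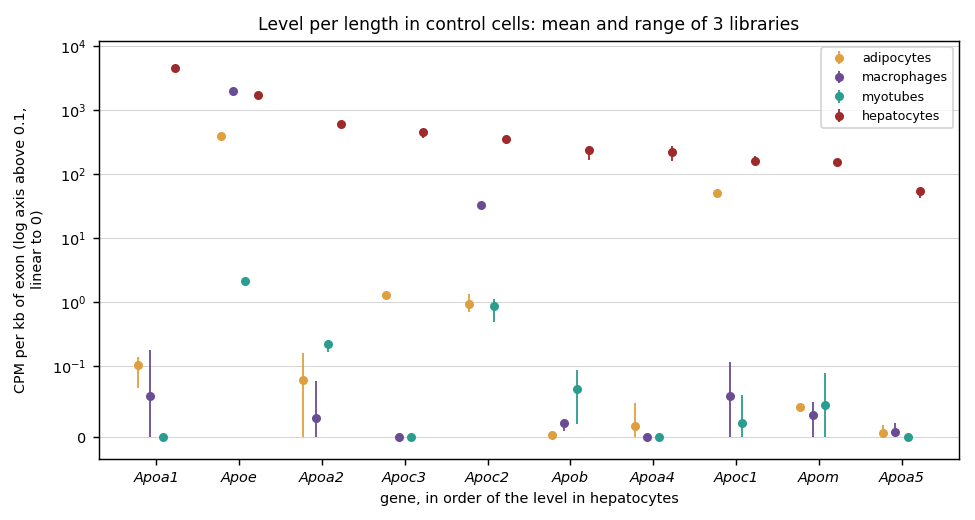
Levels of the 10 members in control cells, as CPM per kb of exon on an axis that is logarithmic above 0.1 and linear down to 0. Points are means and bars the range of 3 libraries; in hepatocytes the means run from 54.0 for *Apoa5* to 4516 for *Apoa1*, and only *Apoe* is above 100 CPM per kb in other cells.

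Outside hepatocytes, control adipocytes expressed *Apoe* at 715, 935 and 883 CPM and *Apoc1* at 36.1, 37.5 and 39.3 CPM. They also held *Apoc3* at 1.47, 1.21 and 1.18 CPM and *Apoc2* at 0.563, 0.646 and 1.10 CPM. All other members were at or below 0.173 CPM in each adipocyte control. Macrophage controls expressed *Apoe* at 4189.8, 4317 and 4348 CPM and *Apoc2* at 27.9, 24.6 and 27.4 CPM, and had no count of *Apoa4* or *Apoc3*, which allows up to 0.0451 CPM over the group (3 counts; counting error only). Macrophage libraries thus paired *Apoe* with *Apoc2*, and adipocyte libraries paired it with *Apoc1*. Markers of other cells were present in these libraries. The sum of 5 fibroblast markers was 5766 to 6732 CPM in adipocyte controls and 2329 to 2450.3 CPM in macrophage controls. In adipocyte controls 4 endothelial markers summed to 176 to 202 CPM. The part of other cells in these levels was not tested. Myotube controls held little of any member. *Apoe* was at 4.91, 4.76 and 4.22 CPM there, and *Apob* at 1.24, 0.264 and 1.32 CPM. No count of *Apoa1*, *Apoa4*, *Apoa5* or *Apoc3* was found in the 3 myotube controls, which allows up to 0.0446 CPM.

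The test across all genes (edgeR, quasi-likelihood, with p adjusted by Benjamini and Hochberg over 15340 genes) called 9 of the 10 members higher in hepatocyte than in macrophage controls, where 82.1% of all tested genes were called and 40.7% were higher. It called 10 higher than in adipocytes (background 81.1%, 39.7% higher) and 10 higher than in myotubes (background 86.6%, 41.7% higher). All 10 members passed the filter on low values in the 9 hepatocyte libraries, and 5 of them would have passed it in the other 27 libraries alone (*Apob*, *Apoc1*, *Apoc2*, *Apoc3* and *Apoe*), so the other 5 entered the test through the cells in which they are high. Outside hepatocytes *Apob* was above 1 CPM only in myotubes: in control replicates 1 and 3 and in the 4 libraries that held hepatocyte transcripts. *Apoe* did not differ by the test between hepatocytes and macrophages (log2 fold change −0.23, 95% interval −0.85 to 0.39, adjusted p = 0.491), and in the fit to the libraries of those cell types alone it was called lower in hepatocytes (adjusted p = 0.000927), as it was without the 4 myotube libraries (−0.24, adjusted p = 0.0135). Macrophages exceeded adipocytes in *Apoc2* (log2 fold change 5.10 ± 0.32 SE, adjusted p = 2.65e-15) and in *Apoe* (2.34 ± 0.32, adjusted p = 8.16e-08), and were below them in *Apoc1* and *Apoc3*, which made 4 members called (background 77.5%). Against myotube controls, 2 members were called in macrophages (*Apoe* and *Apoc2*, both higher, background 82.2%, 39.3% higher) and 4 in adipocytes (background 78.2%), where *Apoe*, *Apoc1* and *Apoc3* were higher and *Apob* was lower. The call of *Apob*, at a mean of 0.941 CPM in myotubes, was lost in 4 of the 6 fits that left out 1 library (control replicate 1 or 3 of either cell type, adjusted p up to 0.0992). It was also lost by limma-voom (−4.25, adjusted p = 0.174) and in the fit to adipocytes and myotubes alone (−4.29, adjusted p = 0.0548). Without the 4 myotube libraries named above, 5 members were called between macrophages and myotubes and 5 between adipocytes and myotubes, where *Apoa1* was called besides (adjusted p = 0.00704).

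**Figure D2:**
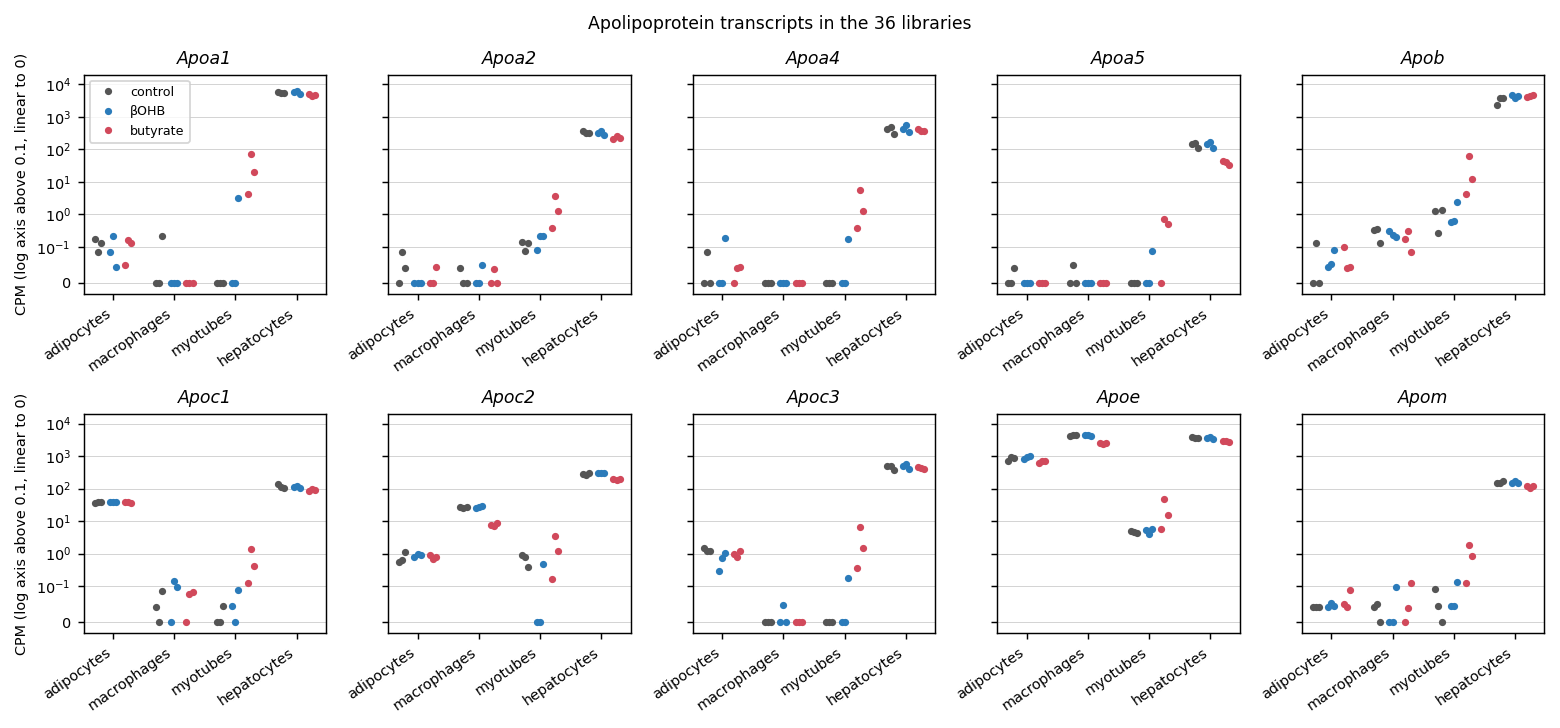
CPM of each member in all 36 libraries, by cell type and treatment, on an axis that is logarithmic above 0.1 and linear down to 0. Each point is 1 library; the 3 butyrate libraries of the myotubes and 1 of their βOHB libraries sit above the controls for *Apoa1*, which had no count in any myotube control.

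Butyrate lowered *Apoa5*, *Apoc2*, *Apoa2*, *Apom* and *Apoc1* in hepatocytes and left no member called higher there. *Apoa5* was at 147, 154 and 107 CPM in controls, at 146, 171 and 112 CPM with βOHB and at 43.2, 40.0 and 33.3 CPM with butyrate. Every library without butyrate was above every library with it. The log2 fold change against control was −1.81 ± 0.18 (SE, adjusted p = 1.88e-08), the largest fall among the members in these cells. *Apoc2* fell from 283, 269.6 and 299.6 CPM to 193, 178 and 198 CPM, or by 0.58 on the log2 scale (SE 0.17, adjusted p = 0.00308), and the groups did not overlap. *Apoa2* fell by 0.51 (SE 0.15, adjusted p = 0.00425) from 353, 307 and 317 CPM to 214, 254 and 217 CPM. *Apom* fell by 0.45 (SE 0.13, adjusted p = 0.0028), from 149, 152 and 166 CPM to 117, 106 and 120.0 CPM, again without overlap. *Apoc1* was at 139, 111 and 106 CPM in controls and at 86.7, 100.2 and 88.9 CPM with butyrate, a fall of 0.37 (SE 0.13, adjusted p = 0.0132) in which the nearest libraries were close. That call rests on single libraries, since the adjusted p was 0.137 without control replicate 1 and 0.058 without butyrate replicate 1.

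The 5 calls of 10 compare with 63.5% of all tested genes called in hepatocytes, 32.4% being lower, and the median log2 fold change was −0.37 over the members and −0.01 over all tested genes. The 5 members that were not called were those of highest CPM. *Apoa1* was at 5633, 5562 and 5549 CPM in controls and at 4860.4, 4349 and 4855 CPM with butyrate (log2 fold change −0.25, 95% interval −1.31 to 0.81). *Apoe* was at 3843, 3640.0 and 3491 CPM and then at 2861, 2878 and 2762 CPM (−0.37, interval −0.99 to 0.25). In both the groups did not overlap although the test missed its threshold. *Apob* went the other way, with 2290, 3787 and 3741 CPM in controls and 4158, 4512 and 4578 CPM with butyrate (0.43, interval −0.42 to 1.28). *Apoa4* (−0.07, interval −0.58 to 0.44) and *Apoc3* (−0.11, interval −0.59 to 0.37) overlapped between the groups, and control replicate 3 was the lowest control library for *Apoa4*, *Apoa5* and *Apoc3*. Markers of other cells moved unevenly in the same libraries. The sum of the 15 macrophage markers was 379 to 411 CPM in controls, led by *Cd14* at a mean of 214 CPM. With butyrate it was 195 to 211 CPM, led by *Cd68* at a mean of 102 CPM. The sum of 4 endothelial markers was 64.6 to 72.1 and then 19.7 to 23.3 CPM. All of these markers had counts in both groups. The sum of 3 bile duct markers overlapped, at 79.3 to 84.6 and then 75.2 to 79.6 CPM. The sums of 7 adipocyte and 8 myotube markers were higher with butyrate instead, at 6.80 to 9.22 and then 20.8 to 24.4 CPM and at 30.1 to 31.3 and then 45.6 to 50.4 CPM. *Acta1* led the myotube sum, at a mean of 18.1 and then 41.7 CPM. The leading adipocyte marker was *Fabp4* in controls (4.65 CPM) and *Cidec* with butyrate (11.6 CPM). The part of other cells in the falls of the members was not tested.

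The calls of these genes changed with the libraries in the fit. Fitted to the 9 hepatocyte libraries alone, 8 members were called: *Apoa1* fell by 0.21 (adjusted p = 0.0137), *Apoe* fell by 0.33 (adjusted p = 0.000522) and *Apob* rose by 0.47 (adjusted p = 0.00926) besides the 5 above. Without the 4 myotube libraries that held hepatocyte transcripts, 8 members were called as well. The share of all genes called in these other fits is not given here. DESeq2 called 3 of the members, *Apoa5*, *Apom* and *Apoc1*.

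βOHB called no member in hepatocytes, where the test called 0.00652% of all genes (0 members also at an unadjusted p below 0.05, and 0 members by limma-voom and by DESeq2). The log2 fold change lay between −0.08 for *Apoc1* and 0.35 for *Apob*, and for *Apoa5*, the member that butyrate lowered most, it was 0.07 with a 95% interval of −0.29 to 0.43. Between the compounds at the same dose and time, 4 members were lower with butyrate than with βOHB (background 63.5%, 33% lower): *Apoa5* by 1.88 on the log2 scale (SE 0.18, adjusted p = 1.05e-08), *Apoc2* by 0.66 (SE 0.17, adjusted p = 0.00106), *Apoa2* by 0.48 (SE 0.15, adjusted p = 0.00672) and *Apom* by 0.45 (SE 0.13, adjusted p = 0.00256). For *Apob* the compounds differed by 0.08 with an interval of −0.76 to 0.93, and all 3 libraries of each compound but βOHB replicate 2 lay above the 3 controls. The butyrate and βOHB comparisons share their control libraries.

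**Figure D3:**
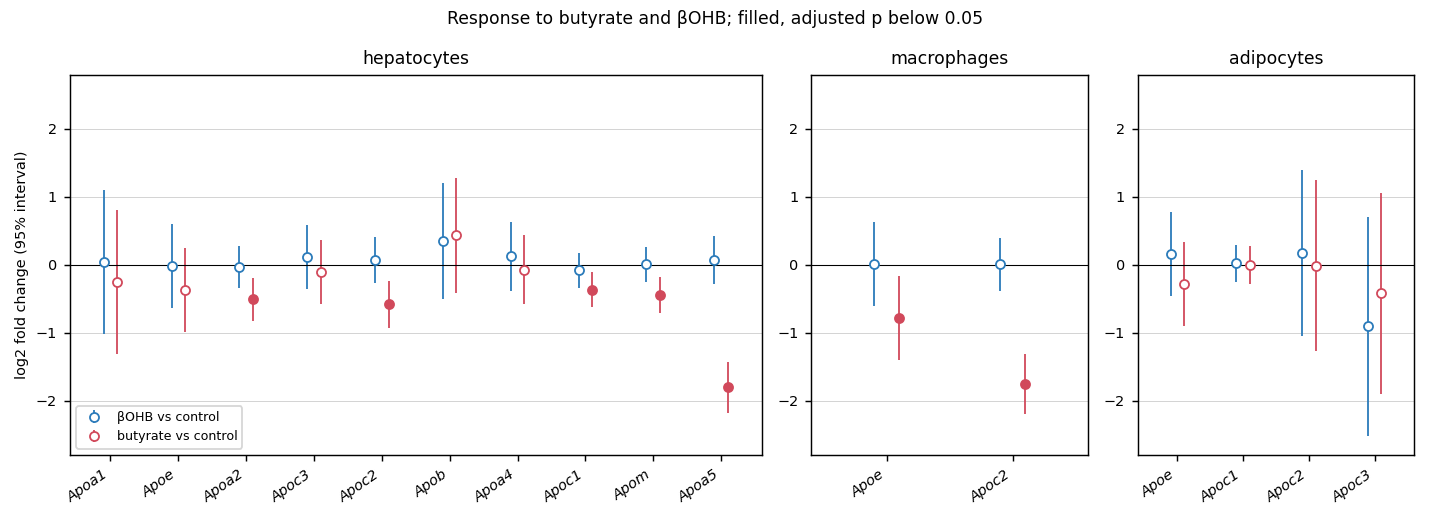
Log2 fold change against control with its 95% interval for βOHB (blue) and butyrate (red), in hepatocytes for all members and in macrophages and adipocytes for the members above about 0.5 CPM there. Filled points passed an adjusted p below 0.05; these are 5 falls in hepatocytes and 2 in macrophages, all with butyrate, the largest being −1.81 for *Apoa5* and −1.76 for *Apoc2*.

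The stretches before the start sites of *Apoa5* and *Apoc2* are shown because these were the members that fell most under butyrate, in hepatocytes and in macrophages. Each has the 250 bases upstream of the annotated start (RefSeq, GRCm38.p6; chr9:46268383-46268632 on the plus strand and chr7:19677942-19678191 on the minus strand). Capitals mark AGGTCA, the core motif of nuclear receptors, and TATAAA, the TATA box, each searched on both strands.
Apoa5: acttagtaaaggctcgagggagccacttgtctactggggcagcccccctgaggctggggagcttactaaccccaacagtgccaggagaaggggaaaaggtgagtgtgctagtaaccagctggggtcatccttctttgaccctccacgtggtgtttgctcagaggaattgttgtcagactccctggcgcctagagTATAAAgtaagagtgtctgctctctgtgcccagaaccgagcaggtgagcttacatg
Apoc2: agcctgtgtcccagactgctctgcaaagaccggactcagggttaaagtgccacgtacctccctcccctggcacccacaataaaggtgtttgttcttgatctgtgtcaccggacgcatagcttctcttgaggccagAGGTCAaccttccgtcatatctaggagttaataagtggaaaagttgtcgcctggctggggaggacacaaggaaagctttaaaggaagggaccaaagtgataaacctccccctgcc
*Apoa5* holds TATAAA at position −56 from its start and no AGGTCA. *Apoc2* holds AGGTCA at −115 and no TATAAA. Over all 32851 such windows, 14.0% hold AGGTCA and 12.4% TATAAA, and windows were found for 8 of the 10 members. A match is only a run of letters and no evidence of binding.

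In macrophages butyrate lowered *Apoc2* and *Apoe*, the members these cells express. *Apoc2* was at 27.9, 24.6 and 27.4 CPM in controls, at 25.6, 26.5 and 28.4 CPM with βOHB and at 7.82, 7.10 and 8.71 CPM with butyrate. This was a fall of 1.76 on the log2 scale (SE 0.22, adjusted p = 2.28e-08), and each butyrate library was far below all other macrophage libraries. *Apoe* went from 4189.8, 4317 and 4348 CPM to 2477, 2435 and 2550.3 CPM with butyrate, a fall of 0.78 (SE 0.31, adjusted p = 0.0251) without overlap. The call for *Apoe* was lost with library totals in place of TMM factors (−0.56, adjusted p = 0.107), a scaling that moved the median of all genes up by 0.20, and in 4 of the 6 fits that left out 1 library (control replicate 3 or any butyrate replicate, adjusted p up to 0.0677), while the macrophage libraries alone gave −0.75 (adjusted p = 6.44e-12). Without the 4 myotube libraries its adjusted p was 1.33e-08, and 3 members were called, with *Apoa1* as the third (adjusted p = 0.0376), which had 5 counts in control replicate 3 and 0 in each of the other 8 macrophage libraries. That library is also the one with 22 counts of *Alb*, and the part of its hepatocyte transcripts in the call was not tested. The 2 calls compare with 65% of all tested genes called, 33.2% lower. The macrophage markers fell beside them: their sum was 25671 to 25889 CPM in controls and 16150.2 to 16931 CPM with butyrate, and *Csf1r*, the receptor of macrophage colony-stimulating factor, was at 1433 ± 33.0 and then 681 ± 29.9 CPM (SD, n = 3). The markers did not fall alike, as *C1qa* was at 349 ± 7.79 and then 298 ± 11.1 CPM. The part of this in the fall of *Apoc2* and *Apoe* was not tested, and in such bulk samples fewer cells and less RNA per cell cannot be told apart.

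βOHB left both members of the macrophages where they were in controls, at a log2 fold change of 0.01 for *Apoc2* (95% interval −0.39 to 0.40) and of 0.01 for *Apoe* (interval −0.61 to 0.63), and none of the 15340 tested genes was called (0%; 0 members at an unadjusted p below 0.05, by limma-voom or by DESeq2). Against βOHB, butyrate lowered *Apoc2* by 1.77 (SE 0.22, adjusted p = 2.17e-08) and *Apoe* by 0.80 (SE 0.31, adjusted p = 0.0231, and 0.0514 to 0.0623 without 1 of the butyrate libraries), with 64.7% of all genes called and 32.8% lower.

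In adipocytes neither compound called a member (0 of 10 for each, with backgrounds of 61% for butyrate and 0.00652% for βOHB; 0 members at an unadjusted p below 0.05 in each comparison, and 0 by limma-voom and by DESeq2). *Apoc1* was at 36.1, 37.5 and 39.3 CPM in controls, at 37.4, 37.9 and 39.2 CPM with βOHB and at 39.4, 38.3 and 34.8 CPM with butyrate, with an interval of −0.28 to 0.27 for the butyrate response on the log2 scale. Adipocytes thus kept a member of the *Apoe* cluster within a narrow range under butyrate. *Apoe* itself was at 715, 935 and 883 CPM in controls and at 628, 725 and 726 CPM with butyrate, with groups that overlapped (log2 fold change −0.29, interval −0.91 to 0.34). In the fit to adipocyte libraries alone *Apoe* was called lower (−0.28, adjusted p = 0.0402), and so it was without the 4 myotube libraries (adjusted p = 0.00712). Against βOHB, 0 of 10 members were called (background 59.5%; 0 also at an unadjusted p below 0.05, by limma-voom and by DESeq2), and *Apoe* was called lower with butyrate in the adipocyte libraries alone (−0.44, adjusted p = 0.00408).

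Adipocyte libraries held macrophage markers at a sum of 551 to 621 CPM in controls and 495 to 536 CPM with butyrate. *Apoc2* stood at 1.59 ± 0.566 counts per 100 counts of *Csf1r* in adipocyte controls and at 1.86 ± 0.106 in macrophage controls (SD, n = 3), whereas *Apoe* stood at 1754 ± 221 in adipocytes and at 299 ± 12.5 in macrophages. With butyrate the ratio of *Apoc2* was 3.01 ± 0.429 in adipocytes and 1.16 ± 0.149 in macrophages, and the libraries did not overlap. These ratios rest on *Csf1r*, which was itself at 48.1 ± 0.912 CPM in adipocyte controls and 25.6 ± 1.27 CPM with butyrate, while *C1qa* was at 28.5 and 29.5 CPM and *Apoc2* at 0.769 and 0.770 CPM (means, n = 3). The butyrate response of *Apoc2* differed between macrophages and adipocytes, by −1.75 on the log2 scale (SE 0.67, adjusted p = 0.0393, background 36.6%, 19.5% lower). It was the 1 member of 10 called in that comparison, and the call was lost in 9 of the 12 fits that left out 1 library (all but control replicate 3 of the adipocytes and control replicate 2 and butyrate replicate 3 of the macrophages, adjusted p up to 0.104) and with library totals alone. The response of *Apoe* was not shown to differ (−0.50, interval −1.38 to 0.38), though it was called in the fit to those cell types alone (−0.48, adjusted p = 0.00445).

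All 10 members were called higher with butyrate than in controls in myotubes, where 66.5% of all tested genes were called, 33.1% higher. The values were uneven between the 3 libraries. *Apoa1* was at 4.31, 72.5 and 19.9 CPM in butyrate replicates 1, 2 and 3, at 0, 0 and 3.28 CPM with βOHB and at 0 in all controls, so butyrate was at least 723-fold higher (against 3 counts over the control group; adjusted p of the test 3.14e-07). Without replicate 2 that bound was 272-fold. *Apob* was at 4.11, 63.7 and 12.6 CPM with butyrate, at 0.597, 0.622 and 2.39 CPM with βOHB and at 1.24, 0.264 and 1.32 CPM in controls (log2 fold change 4.83 ± 0.65 SE, adjusted p = 1.48e-07). *Apoe* was at 5.90, 48.2 and 15.2 CPM with butyrate against 4.91, 4.76 and 4.22 CPM in controls (2.32 ± 0.37, adjusted p = 2.41e-06). In every one of the 10 members butyrate replicate 2 was the highest and replicate 1 the lowest of the 3, the order in which *Alb* stood in those libraries (23.5, 432 and 95.3 CPM). In the same libraries the 8 myotube markers summed to 17280.5 to 23288 CPM, against 26039 to 31808 CPM in controls. The sum of 3 bile duct markers, led by *Sox9*, was 55.7 to 73.3 against 36.6 to 38.6 CPM. The part of these changes in the calls was not tested.

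The ratios of the members to albumin were mostly within the range of all hepatocyte libraries, and mostly above that of butyrate-treated hepatocytes. *Apoa1* had 18.3, 16.8 and 20.9 counts per 100 counts of *Alb* in the 3 butyrate libraries of the myotubes (exact 95% counting intervals 14.8 to 22.6, 15.9 to 17.6 and 18.9 to 23.2). In the 9 hepatocyte libraries its ratio ran from 12.4 to 21.1, with a mean of 19.9 in controls and 13.7 with butyrate. *Apoc3* had 1.56, 1.49 and 1.55 per 100 counts of *Alb* against a hepatocyte range of 1.20 to 1.85, and *Apoa4* had 1.56, 1.30 and 1.36 against 1.04 to 1.74. Of the 30 ratios (10 members in 3 libraries), 21 were inside the range of the 9 hepatocyte libraries, 8 above and 1 below. Against the 3 hepatocyte libraries of the same treatment, 1 was inside, 28 were above and 1 was below. *Apoc2* had a mean of 0.912 per 100 counts of *Alb* there against 0.554 in butyrate-treated hepatocytes, and *Apoa2* 1.24 against 0.665. *Apoe* had 25.2, 11.1 and 15.9 against 8.18 to 14.1 in all 9 hepatocyte libraries and 8.18 to 8.42 in those with butyrate, and control myotubes held *Apoe* with at most 1 count of *Alb* in a library. In βOHB replicate 3, *Apoa1* had 17.8 counts per 100 of *Alb* (interval 13.7 to 22.9) and *Apob* had 13.0 (interval 9.61 to 17.3), both within the hepatocyte range. Of the 10 ratios in that library, 5 were inside the range, 3 above (*Apoe* at 30.4, *Apoc2* at 2.65 and *Apom* at 0.723) and 2 below (*Apoa4* and *Apoc3*, at 0.964 each). *Apom* rested on 3 counts (interval 0.148 to 2.13) and *Apoa4* and *Apoc3* on 4 each (interval 0.261 to 2.49). The intervals of these members span their hepatocyte ranges.

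**Figure D4:**
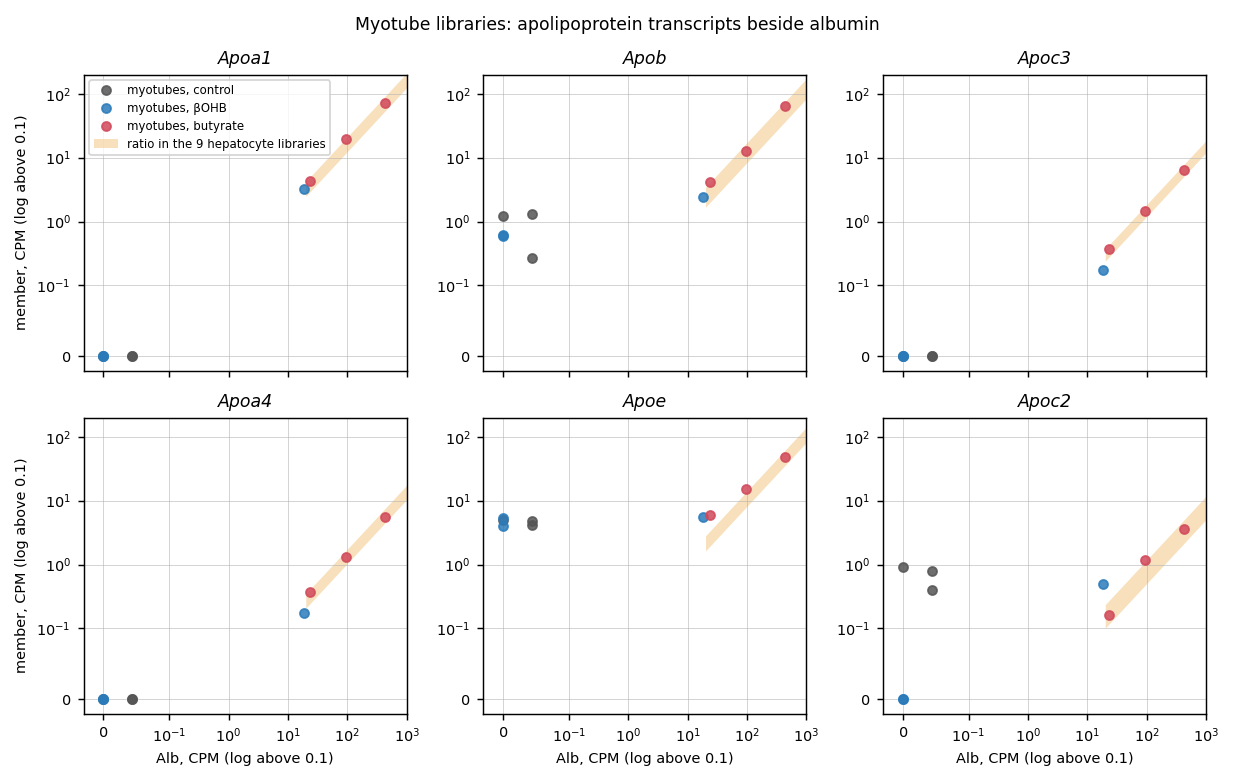
CPM of 6 members against CPM of *Alb* in the 9 myotube libraries, on axes that are logarithmic above 0.1 and linear down to 0. The band is the range of the ratio of the member to *Alb* in the 9 hepatocyte libraries, drawn from 20 CPM of *Alb*; the butyrate libraries, at 23.5 to 432 CPM of *Alb*, follow it for *Apoa1*, *Apoc3* and *Apoa4*, while *Apoe* and *Apoc2* were also present in control myotubes.

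Other hepatocyte transcripts were present in the same libraries. All 16 hepatocyte markers had counts in the butyrate libraries of the myotubes, and 10 of the 16 in control libraries, where *Ttr*, which encodes transthyretin, *Fga*, *Fgg*, *Kng1*, *Mat1a* and *Serpina3k* were at 0. *Ttr* was at 0.366, 6.76 and 1.52 CPM with butyrate. *Hnf4a*, a transcription factor of hepatocytes, was at 0.692, 6.03 and 2.55 CPM there and at 0 in all controls. Measured by the marker list, hepatocyte transcripts made up 0.109%, 1.76% and 0.433% of a hepatocyte library in the 3 butyrate libraries and 0.0881% in βOHB replicate 3. The same measure gave 0.0187% to 0.0232% in the other 5 myotube libraries, so the correction also removed counts from controls. When each library was corrected by that share of the hepatocyte profile of the same treatment, 4 of 10 members were called, and the log2 fold change turned to −0.38 for *Apob* and to −0.48 for *Apoc2*. For the other 4 members that lost their call the fitted value stayed positive. After the subtraction none of them had a count in controls, so no size is given. Their adjusted p-values were 0.0622 for *Apoc1*, 0.0605 for *Apoa5*, 0.0567 for *Apoc3* and 0.251 for *Apoa4*. *Apoc1* was left with 1, 1 and 2 counts in the butyrate libraries. When the share was taken from *Alb* alone, 8 members were called with the profile of butyrate-treated hepatocytes and 4 with that of control hepatocytes, 2 of those 4 higher and 2 lower. With the butyrate profile, *Apoa1* was left at 1.10, 13.6 and 6.96 CPM and *Apoe* at 3.99, 12.7 and 7.32 CPM. With the control profile, *Apoa1* was left at 0, 0 and 0.988 CPM, *Apoc3* at 0 in all 3, *Apoe* at 2.85, 0 and 2.74 CPM and *Apob* at 1.38, 13.5 and 1.48 CPM. What was left of a member thus varied with the profile subtracted.

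The call of *Apoc2* in myotubes was the least firm. It was at 0.917, 0.793 and 0.396 CPM in controls, at 0, 0 and 0.488 CPM with βOHB and at 0.163, 3.56 and 1.16 CPM with butyrate, and its call (1.23 ± 0.53 SE, adjusted p = 0.0398) turned to −0.13 without butyrate replicate 2, and was lost without control replicate 2 or 3. It was also lost by limma-voom (0.43, adjusted p = 0.580) and in the myotube libraries alone (1.24, adjusted p = 0.288). Macrophage markers moved through the myotube groups too: all 15 had counts in each group, and their sum was 649, 533 and 238 CPM in controls, 131, 96.6 and 231 CPM with βOHB and 43.8, 169.5 and 71.5 CPM with butyrate. In controls *Apoc2* stood at 2.27 ± 0.389 counts per 100 counts of *Csf1r*, against 1.86 ± 0.106 in macrophage controls (SD, n = 3). With βOHB it was 0, 0 and 3.63 in myotubes, and with butyrate 31.0 ± 18.1 against 1.16 ± 0.149 in macrophages. *Apoe* stood at 17.4 ± 10.1 in myotube controls, against 299 ± 12.5 in macrophages.

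βOHB called no member in myotubes by edgeR (0 of 10, background 2.91%), with 2 members, *Apoa1* and *Apoc2*, at an unadjusted p below 0.05. *Apoc2* was lower by 2.05 on the log2 scale (95% interval −3.96 to −0.22, adjusted p = 0.292), and DESeq2 called it (adjusted p = 0.048) as the 1 member. Limma-voom called 0. With the macrophage share of each library subtracted, the difference was −1.10 (adjusted p = 0.854). It was called with the hepatocyte share subtracted (−2.79, adjusted p = 0.0272 by the marker list, and 0.0323 and 0.00563 by *Alb* with each profile) and with no filter on low counts (adjusted p = 8.28e-05). *Apoa1* had counts in 1 βOHB library alone, replicate 3, which is also the 1 with *Alb*. The βOHB response of the members in myotubes was not shown to differ from that in the other cell types (0 of 10 called, background 1.06%, 1 member at an unadjusted p below 0.05, and 0 by limma-voom and by DESeq2). Butyrate exceeded βOHB in myotubes in 10 of 10 members (background 66%, 33.1% higher), and the response to butyrate was lower in hepatocytes than in myotubes in 10 of 10 (background 48.4%, 25.8% lower). The excess of *Apoa5* over βOHB was lost without βOHB replicate 1 or 2 or butyrate replicate 2 or 3 (adjusted p up to 0.129), by limma-voom (2.35, adjusted p = 0.107) and in the myotube libraries alone (3.59, adjusted p = 0.0619). With the hepatocyte share of the marker list removed, the count against βOHB was 6.

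Reads of *Apoc2* can be shared with *Gm44805*, a readthrough gene of the same strand that covers 79.5% of its exon bases. *Gm44805* had at most 41.5 counts in any library and a mean of 1.41 CPM in hepatocyte controls, against 284 CPM for *Apoc2*. The primer pair that the study used for *Apoc2* in qPCR shows the same overlap.
Forward: agctgcctgatatggaagga
Reverse: gctgtctgggacctgaatgt
Both primers were found in 2 of the 3 annotated *Apoc2* transcripts and in 1 of the 2 *Gm44805* transcripts, with a product of 117 bp in each (GENCODE M21). *Apoa4* overlaps the antisense gene *Gm10680* over 34.8% of its exon bases, and the strand setting of the libraries is not given in the sources used here, but *Gm10680* had at most 21.1 counts.

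Genes that work with apolipoproteins moved in both directions under butyrate in hepatocytes. Of 34 partners (assembly and secretion, lipases, receptors), 33 were tested, 11 rose, 15 fell and 7 did not pass, against a background of 63.5%, 32.4% lower. *Sort1*, a sorting receptor that binds apoB, rose from 34.0 ± 4.32 to 102 ± 0.811 CPM (SD, n = 3; log2 fold change 1.59, adjusted p = 1.27e-14), and *Sar1b*, the GTPase of the vesicles that carry these particles out of the endoplasmic reticulum, rose from 98.1 ± 9.93 to 165 ± 5.63 CPM (0.76, adjusted p = 2.82e-13). *Surf4*, their cargo receptor, fell from 487 ± 6.91 to 259 ± 6.37 CPM (−0.91, adjusted p = 2.73e-15). Of 21 other apolipoprotein genes and genes named for them, 17 were tested, 2 rose and 8 fell, among them *Apon*, the gene of apolipoprotein N, from 93.8 ± 7.48 to 21.3 ± 2.54 CPM (−2.14, adjusted p = 8.84e-15). Of 19 regulators of apolipoprotein genes, all tested, 3 rose and 11 fell. *Hnf4a* fell from 645 ± 17.4 to 309 ± 5.40 CPM (adjusted p = 0.000588), and *Nr1h3*, the liver X receptor α, fell by 2.06 on the log2 scale (adjusted p = 1.26e-16). Both were picked after their values were seen. βOHB called 0 genes of the 3 lists in hepatocytes.

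In macrophages 9 of the 33 tested partners rose and 11 fell with butyrate (background 65%). *Abca1*, which loads cholesterol on apoA-I and apoE, fell from 213 ± 4.01 to 96.7 ± 6.01 CPM (−1.14, adjusted p = 5.21e-10). *Scarb1*, the HDL receptor, rose from 88.8 ± 3.84 to 132 ± 4.34 CPM (0.58). *Apobec1*, the gene of the enzyme that edits *Apob* transcripts and no apolipoprotein itself, fell from 241 ± 2.49 to 83.0 ± 4.30 CPM (−1.54, adjusted p = 7.59e-12) as 1 of 2 genes of that second list to fall, with 2 that rose. In adipocytes 7 partners rose and 11 fell (background 61%), led by *Lipg*, endothelial lipase, from 2.43 ± 0.301 to 12.9 ± 0.541 CPM (2.41) and *Angptl8*, an inhibitor of lipoprotein lipase, from 12.0 ± 1.20 to 2.90 ± 0.236 CPM (−2.05). In myotubes 16 partners rose and 6 fell (background 66.5%, 33.1% higher), and of the 17 tested genes of the second list 10 rose and 3 fell, led by *Clu*, or apolipoprotein J, at 14.9, 128 and 41.9 CPM with butyrate against 0.826, 0.396 and 0.572 CPM in controls. *Clu* was at 7331, 7344 and 8033 CPM in hepatocytes with butyrate, and replicate 2 was again the highest in myotubes. In macrophages *Clu* rose with butyrate as well, from 0.771 ± 0.220 to 4.49 ± 0.857 CPM (2.52, edgeR adjusted p = 0.00284). The source of its counts in myotubes was not tested. Under βOHB, 3 partners fell in myotubes (*Stab1*, *Abca1* and *Lpl*) and none rose (background 2.91%). In the lists of other apolipoprotein genes and of regulators 1 gene each fell, *Apobec1* being that of the former, and none rose. *Stab1*, a scavenger receptor of macrophages and endothelium, went from 9.63, 8.63 and 3.61 to 1.52, 1.02 and 2.39 CPM, and *Lpl*, lipoprotein lipase, from 46.4, 41.5 and 30.7 to 27.7, 23.5 and 28.2 CPM, beside the macrophage markers above.

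Over the 12 group means, the genes whose log2 CPM ran most like each member were described by Pearson's r, which is dominated by the gap between hepatocytes and the other cells. For *Apoa5* these were *Nr1i2* (r = 0.9993) and *Gimd1* (0.9991), for *Apom* *Gjb1* (0.9997) and *C8b* (0.9996), for *Apoc1* *Cyp2e1* (0.9990) and *Ubd* (0.9965), and for *Apob* *Serpina1e* (0.9966) and *Pzp* (0.9952). *Apoc2* and *Apoe*, the members shared with macrophages, had the lowest values, with *Akr1c12* (0.9873) and *Abcc3* (0.9859) for *Apoc2* and *Prdx4* (0.9931) and *Gnptg* (0.9928) for *Apoe*. For *Apoa1* the closest were *Mup7* and *Mup20* (0.9985 each), for *Apoa2* *C4bp* and *Rab17* (0.9985 each), for *Apoa4* *Itih3* (0.9998) and *Saa1* (0.9995), and for *Apoc3* *Cfi* (0.9983) and *Orm2* (0.9976).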

How the data were processed

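RNA of 36 libraries (3 in each of 12 groups) was sequenced by the study. Per the labels and the study's methods, the authors estimated transcript abundance with Salmon 1.2.1 on GENCODE transcripts (GRCm38.p6), summed it per gene with tximport and deposited the estimated counts of 54347 genes. The methods state a scaling by transcript length and library size. The deposited totals differ between libraries (18366289 to 23221473, median 22177562), and 55.6% of the values above 0 are whole. The strand setting is not given in the sources used here. Symbols came from GENCODE M21 and matched 54094 genes. All 36 sample columns were mapped by their labels.

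Counts were rounded and fitted with edgeR 4.0.16 (R 4.3.3) by the quasi-likelihood test, with TMM factors, 1 mean per group and all 36 libraries in the fit, over 15340 genes above 1 CPM in at least 6 libraries. P-values were adjusted by the Benjamini-Hochberg procedure over these genes and called below 0.05. All tests were two-sided. A gene whose control libraries were all at 0 was compared with 3 counts over that group, a floor that, like the exact intervals of ratios (95%), covers counting error only. The code was tested on simulated data. No library repeated another of its group: the 36 pairs of libraries within groups differed by a chi-square of 2.61 to 38.1 per gene. Replicate numbers are shared between groups, but only 4 of 36 pairs of same-numbered libraries deviated together (correlation above 0.1, range −0.264 to 0.273), so they were not taken as pairs.

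Alternatives were limma-voom (limma 3.58.1), DESeq2 1.42.0, RLE factors, library totals alone, no filter, more than 20 counts in at least 6 libraries, the compared cell types alone, the replicate block, each library left out, other transcript lengths, and subtraction of hepatocyte or macrophage shares estimated from markers. Subtraction by *Alb* and the fits without 4 myotube libraries were added after seeing the data. Named genes were the 10 members, in each list of partners and other apolipoproteins up to 3 raised and 3 lowered genes of smallest p, marker genes, overlapping genes, and the 2 genes of most similar pattern for each member. Members and lists were chosen with earlier results of these data known. Some genes of the lists are not reported here.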

Additional observations from a re-analysis of the deposited data

Results flagged for a closer look

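The response to butyrate differed between hepatocytes and myotubes in all 10 members by the test of the difference (edgeR). On the log2 scale it was lower in hepatocytes by −4.36 for *Apoa2*, −4.40 for *Apob*, −5.30 for *Apoc1*, −1.81 for *Apoc2*, −2.69 for *Apoe* and −4.67 for *Apom*. For *Apoc1* this rests on 1 count over the myotube controls, with a butyrate ratio there of 42.2 (counting interval 7.20 to 1705). For *Apom* it rests on 3 counts (21.0, interval 6.87 to 104). *Apoa1*, *Apoa4*, *Apoa5* and *Apoc3* had no count in control myotubes, so no size is given for them, and their adjusted p-values were 4.351e-06, 0.0005393, 0.000526 and 0.0001087. The myotube side of each difference came from the 3 butyrate libraries in which *Alb* was at 23.5, 432 and 95.3 CPM. For *Apoc2* the difference was −0.46 (adjusted p = 0.517) without butyrate replicate 2 of the myotubes, and −1.01 (adjusted p = 0.214) by limma-voom, which called 9 members.

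The response of *Apoc2* to butyrate was also called different between macrophages and adipocytes, by −1.75 on the log2 scale (edgeR). That call was lost with library totals alone (adjusted p = 0.0574) and in most fits that left out a single library (adjusted p up to 0.104). *Apoc2* fell in macrophages from a mean of 26.6 to 7.88 CPM and was at 0.769 and 0.770 CPM in adipocytes, near the lower end of what was tested.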

How the results depend on the processing

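Of 3696 values recomputed under the alternatives, 3566 kept their side of the threshold, 61 lost a call, 57 gained one and 12 called values changed sign. Among the 3566, 138 that were not called changed sign. Low levels outside hepatocytes limit most members there to a few counts. The share of all genes called is given for the main test alone. The counts below show how the calls of members moved, and nothing beyond that. With no filter on low counts, the members called were 1 in adipocytes for butyrate against control and 1 against βOHB, 2 in myotubes for βOHB against control, 7 in hepatocytes for butyrate against βOHB, 2 for the difference in butyrate response between macrophages and adipocytes, 2 for the βOHB response of myotubes against the other cells and 4 between macrophage and myotube controls. In the fits to the compared cell types alone they were, for butyrate against control, 1 in adipocytes and 8 in hepatocytes, against βOHB 1 and 7, and 2 for macrophages against adipocytes. Without the 4 myotube libraries these 5 counts were the same (1, 8, 1, 7 and 2), and 5 members were called between macrophage and myotube controls. With library totals alone, 1 member was called in macrophages against control and 1 against βOHB, and 0 for macrophages against adipocytes. DESeq2 called 3 members in hepatocytes for butyrate, 1 in myotubes for βOHB and 4 between macrophage and myotube controls. The cause of these changes was not tested. The scaling by library totals moved the median of all genes under butyrate by 0.202 in macrophages and 0.133 in myotubes on the log2 scale. With lengths of the longest coding transcript, 6 of 10 members kept their rank in hepatocytes.

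With the hepatocyte share of the marker list subtracted, 4 members were called in myotubes for butyrate against control and 6 against βOHB, *Apob* was at −0.38 and *Apoc2* at −0.48 against control, 1 member was called for βOHB, 1 in adipocytes for butyrate against βOHB and 2 for macrophages against adipocytes. With the share from *Alb* and hepatocytes of the same treatment, *Apoc2* was at −0.17, 1 member was called in myotubes for βOHB and 1 in adipocytes for butyrate against βOHB. With control hepatocytes, 4 were called for butyrate in myotubes, with *Apoa2* at −0.71, *Apoc1* at −0.054, *Apoc2* at −3.50 and *Apoe* at −1.32, and 1 for βOHB. Against βOHB 3 were called there, with *Apoa2* at −0.53, *Apoc1* at −0.06, *Apoc2* at −0.83 and *Apoe* at −1.16.

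Leaving out 1 library at a time, the members called for butyrate against control ranged from 1 to 2 in macrophages, 9 to 10 in myotubes and 4 to 5 in hepatocytes, and against βOHB from 1 to 2, 9 to 10 and 4 to 5. They ranged from 9 to 10 for hepatocytes against myotubes, 0 to 1 for macrophages against adipocytes and 3 to 4 between adipocyte and myotube controls, and did not move in the other comparisons. *Apoc2* under butyrate in myotubes ranged from −0.13 without butyrate replicate 2 to 1.78 without butyrate replicate 1.

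With the replicate block, the members called against control were 0 in adipocytes, 2 in macrophages, 10 in myotubes and 5 in hepatocytes under butyrate, and 0 in each under βOHB. The block changed the call of 1 member, *Apoc1* in hepatocytes for butyrate against βOHB (−0.28, adjusted p = 0.0138). As the numbers were not found to pair the libraries, they share only a number.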
